A study of Mus musculus with 18 samples.

Results

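The genes that make, transport and break down dopamine were examined in mouse striatum, the forebrain region that receives the densest dopamine input. The set held 6 genes, chosen by symbol: Th, Ddc, Slc18a2, Slc6a3, Maoa and Maob. Every probe set that carried only 1 of these symbols was used, which gave 4 probe sets of 22690 on the array, 1 each for Th, Ddc, Slc6a3 and Maoa. Slc18a2 and Maob have no values here.

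The arrays came from the striatum with the nucleus accumbens of littermate mice aged 10 to 20 weeks, 1 array per animal. Control and mutant animals received an intraperitoneal injection of saline or of cocaine at 25 mg/kg and were killed 1 hour later. The mutation concerns Camk4, which encodes the calcium and calmodulin dependent kinase CaMKIV, an activator of the transcription factor CREB. The labels say only "mutant", and the sources used here give neither the allele, nor the driver of any Cre, nor the cells that lack the kinase. The titles gave 3 control and 3 mutant saline arrays and 6 control and 6 mutant cocaine arrays. Animals were numbered in Arabic numerals (all saline arrays and 3 cocaine arrays per genotype) or Roman numerals (3 cocaine arrays per genotype). This numbering series was a term in the main fit. Some of the other settings left it out or used other blocks in its place. The separate description lines of the samples name other groups than the titles, so the groups rest on the titles.

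Dopamine is made in neurons from tyrosine, which tyrosine hydroxylase (Th) turns into L-DOPA in the rate-limiting step and aromatic L-amino acid decarboxylase (Ddc) turns into dopamine. The vesicular transporter encoded by Slc18a2 loads it into synaptic vesicles. The dopamine transporter encoded by Slc6a3, the main target of cocaine, takes it back up after release. Monoamine oxidases A and B (Maoa and Maob), on the outer mitochondrial membrane, break it down in neurons and glia. The dopamine neurons that serve the striatum have their cell bodies, and most of their mRNA, in the midbrain, while the proteins act in axons within the striatum.

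The promoter of Th is shown because it holds a cAMP response element, the sequence that CREB binds. The 250 bases before the annotated start are taken from RefSeq (GRCm38.p6, chr7:142899996-142900245, minus strand), written 5′ to 3′ with the element TGACGTCA in capitals.

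Th: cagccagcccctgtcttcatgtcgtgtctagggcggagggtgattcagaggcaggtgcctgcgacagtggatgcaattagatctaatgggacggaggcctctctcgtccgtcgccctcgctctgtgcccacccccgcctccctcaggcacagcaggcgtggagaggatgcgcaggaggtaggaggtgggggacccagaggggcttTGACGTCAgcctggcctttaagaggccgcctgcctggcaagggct

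The first base of this element lay at -45 from the start. Its letters read the same on both strands, and they occur in 588 of 32851 RefSeq promoter windows of 300 bases, or 1.79%. The Slc18a2 window held the same letters from -4, across the start itself. The windows of Slc6a3 and Maoa and both windows of Ddc did not hold them. The AP-1 letters TGACTCA, searched on both strands and found in 5.20% of all windows, were in none of these 6 windows. A match is a description of letters and not a sign of binding.

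All values are log2 GCRMA expression values per probe set, and all differences are between such values. A level depends on the probes of its probe set, so an order of genes by level served only to choose which to name. A probe set counted as measured at a local level when it lay above log2 4 in at least 3 of the 18 arrays, which 12674 of all probe sets did. Of the 4 probe sets of the gene set, 3 passed (Th, Ddc and Maoa), each in 18 of 18 arrays, and Slc6a3 lay at the floor in all arrays.

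Before the members, the labels were checked. Camk4 had 3 probe sets, and at the brightest all control arrays lay between 7.52 and 7.76. The mutant arrays lay between 6.85 and 7.69, with only cocaine replicate 6 inside the control range. Averaged over treatments, this probe set stood at -0.37 ± 0.09 in the mutant (SE, limma adjusted p = 0.611), and a second at -0.49 ± 0.27. Neither passed, the third lay at the floor, and whether any covers the mutated part is not given. Among markers of medium spiny neurons, the main cell type of the striatum, 6 of 6 measured genes were above the floor, with Penk at 13.9 and Ppp1r1b at 13.4 on average. Mutant cocaine replicate 5 stood apart, and its actin probe sets differed by 3.59 between 3' and 5' end, as happens in shortened RNA, against 1.57 to 2.55 in the other arrays. The averaged Ddc difference and the genotype differences after cocaine are also given without each of these 2 mutant arrays.

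**Figure D1:**
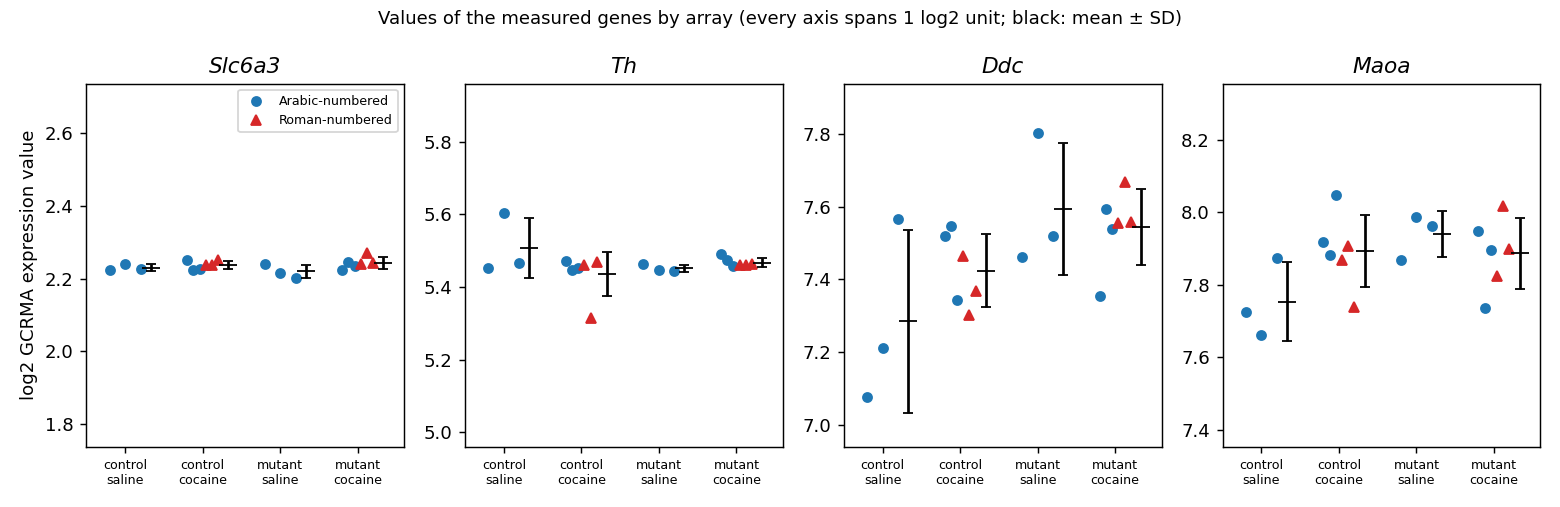
Log2 GCRMA values of Slc6a3, Th, Ddc and Maoa in each array by group, as circles (Arabic-numbered animals) or triangles (Roman-numbered), with the group mean ± SD in black; each vertical axis spans 1 log2 unit. Slc6a3 and Th form flat lines apart from 1 control saline and 1 control cocaine array for Th, while Ddc runs from 7.08 to 7.80 and Maoa from 7.66 to 8.05.

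Slc6a3 was at the floor of the processed values in every group. Its values were 2.22, 2.24 and 2.23 in the control saline arrays and 2.24, 2.22 and 2.20 in the mutant saline arrays. After cocaine they ran from 2.22 to 2.25 in control mice (median 2.24) and from 2.22 to 2.27 in mutant mice (median 2.24). The groups overlapped throughout, and the SD over the 18 arrays was 0.015. No fold change is given for a probe set at the floor.

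Th stood above log2 4 in all arrays yet varied far less than most probe sets of its level. The control saline arrays were at 5.45, 5.60 and 5.47 and the mutant saline arrays at 5.46, 5.45 and 5.45. After cocaine the control arrays ran from 5.32 to 5.47 (median 5.46) and the mutant arrays from 5.46 to 5.49 (median 5.46). Apart from control saline replicate 2 (5.60) and control cocaine replicate 5 (5.32), 16 of 18 arrays lay within 0.05 of the median of all arrays.

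The SD of Th over the 18 arrays was 0.051, against a median SD of 0.260 for the 1195 probe sets with a mean level above 5 and up to 6. Of those 1195 probe sets, 7 had a smaller SD, or 0.586%. Ddc and Maoa had SDs of 0.171 and 0.105, against a median SD of 0.190 for 2082 probe sets between 7 and 8. Among the 7299 probe sets with a mean above 2 and up to 3, where Slc6a3 lay, 73.7% had an SD no larger than that of Th. Whether the Th value is signal or the background estimate of that probe set was not tested, since probe-level intensities were not used here.

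**Figure D2:**
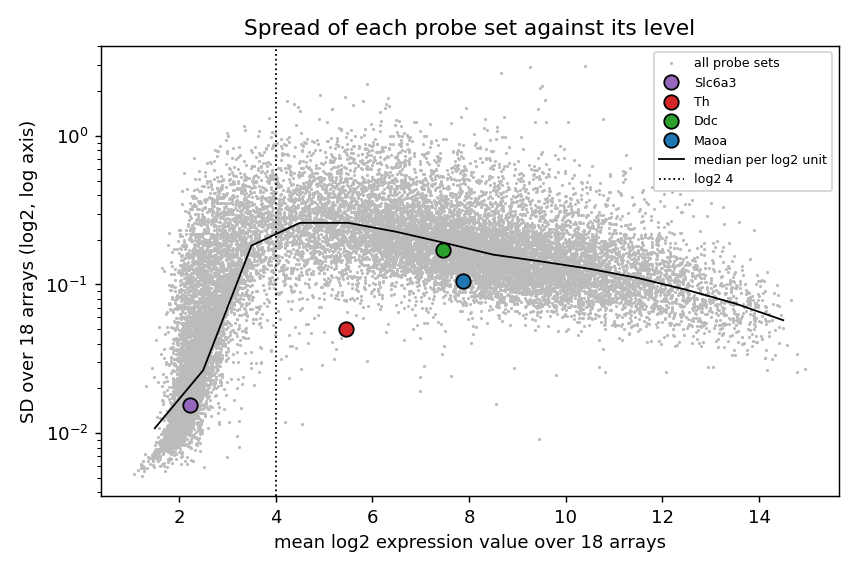
SD over the 18 arrays (log axis) against the mean log2 expression value for all probe sets other than Affymetrix controls, with the 4 probe sets of the gene set marked, the median SD per log2 unit as a line and log2 4 dotted. Th, at a mean of 5.46 and an SD of 0.051, lies far below the probe sets of its level, while Ddc lies near the line.

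In the comparisons of groups no difference of Th passed the threshold. Cocaine minus saline was -0.06 ± 0.08 in control mice and 0.03 ± 0.08 in mutant mice (SE, limma adjusted p = 1.000 and 0.924). Mutant minus control was -0.06 ± 0.08 after saline and 0.03 ± 0.06 after cocaine. The 95% intervals of these 4 differences lay between -0.23 and 0.19 in all. Both differences averaged over the other factor, -0.01 ± 0.06 for cocaine and -0.01 ± 0.05 for genotype, changed sign when each array was centred on its median.

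Ddc was the member that differed most between genotypes, and this difference did not pass the threshold. The control saline arrays were at 7.08, 7.21 and 7.56 and the mutant saline arrays at 7.46, 7.80 and 7.52. After cocaine the control arrays ran from 7.30 to 7.55 (median 7.42) and the mutant arrays from 7.35 to 7.67 (median 7.56). The highest control saline array lay inside the mutant saline range, and the cocaine groups overlapped as well.

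By group mean, Ddc was highest in mutant saline (7.59 ± 0.18, SD, n = 3), then mutant cocaine (7.54 ± 0.10, n = 6), control cocaine (7.42 ± 0.10, n = 6) and control saline mice (7.28 ± 0.25, n = 3). Each step in this order was smaller than the larger SD of its neighbours, except the step from mutant to control cocaine mice, whose difference is tested next.

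Averaged over treatments, Ddc stood 0.22 ± 0.08 higher in the mutant (SE), a 1.16-fold difference with a 95% interval of 1.04 to 1.30. Its unadjusted p in limma was 0.0127 and its adjusted p over all probe sets was 0.679. By p it ranked 222 of 12674, and 7.13% of all probe sets had an unadjusted p under 0.05 in the same comparison. The difference was 0.31 ± 0.13 after saline (unadjusted p = 0.0249, adjusted p = 1.000 in limma) and 0.12 ± 0.09 after cocaine (adjusted p = 0.531).

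Within the numbering series, the Ddc difference after cocaine was 0.03 ± 0.13 in the Arabic-numbered arrays and 0.21 ± 0.10 in the Roman-numbered ones (SE). Without mutant cocaine replicate 5 the averaged difference was 0.20 ± 0.08 and that after cocaine 0.09 ± 0.09. Without mutant cocaine replicate 6 they were 0.21 ± 0.08 and 0.12 ± 0.10. For Th the difference after cocaine was 0.03 ± 0.06 without either array. After saline, the difference between actin probe sets averaged 2.08 ± 0.20 in control and 2.31 ± 0.09 in mutant arrays (SD, n = 3 each). The 2 ranges overlapped, at 1.89 to 2.29 and 2.23 to 2.41. Between numbering series it differed more. It ran from 2.14 to 2.55 in Arabic-numbered cocaine arrays and from 1.57 to 1.91 in Roman-numbered ones without mutant cocaine replicate 5. The summed linear level of the 9 measured endothelial markers ran from 841 to 926 in control and from 865 to 1120 in mutant saline arrays. After cocaine it ran from 783 to 1060 in control and from 792 to 1071 in mutant arrays. That of the midbrain dopamine neuron markers, mostly from Aldh1a1, went the other way after saline. It ran from 511 to 538 in control and from 354 to 501 in mutant arrays. The part of RNA quality or cell makeup in the Ddc values was not tested. In whole tissue, fewer cells of a type and less RNA per cell cannot be told apart.

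No cocaine response of Ddc passed the threshold in either genotype. Cocaine minus saline was 0.14 ± 0.12 in control mice, with a 95% interval of -0.11 to 0.39. In mutant mice it was -0.05 ± 0.12, with an interval of -0.30 to 0.20. The response in mutant minus that in control mice was -0.19 ± 0.15 (SE, limma adjusted p = 0.992). Both values moved with single control saline arrays. Without control saline replicate 1 they were 0.03 and -0.09, and without control saline replicate 3 they were 0.28 and -0.33. Without mutant saline replicate 2 the second was also -0.09.

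Maoa showed no difference past the threshold between the 4 groups. The control saline arrays were at 7.72, 7.66 and 7.87 and the mutant saline arrays at 7.87, 7.99 and 7.96. After cocaine the control arrays ran from 7.74 to 8.05 (median 7.89) and the mutant arrays from 7.74 to 8.02 (median 7.90). The highest control saline array lay just above the lowest mutant saline array, and the cocaine groups covered almost the same range.

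The group means of Maoa were 7.94 ± 0.06 in mutant saline and 7.75 ± 0.11 in control saline mice (SD, n = 3 each). They were 7.89 ± 0.10 in both cocaine groups (SD, n = 6 each), between the saline means. Cocaine minus saline was 0.15 ± 0.08 in control mice (SE, unadjusted p = 0.0866, limma adjusted p = 1.000), with an interval of -0.02 to 0.33, and -0.04 ± 0.08 in mutant mice. Mutant minus control was 0.19 ± 0.09 after saline (unadjusted p = 0.0568, limma adjusted p = 1.000) and -0.01 ± 0.06 after cocaine, a sign that turned within the Roman-numbered arrays (0.08 ± 0.11) and with median centring. It was -0.04 ± 0.06 without mutant cocaine replicate 5, and leaving out replicate 6 instead gave -0.01 ± 0.07. The response in mutant minus that in control mice was -0.19 ± 0.11 (limma adjusted p = 0.992).

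The Arabic animal numbers run in 3 sets of 4 consecutive numbers, each with 1 animal of every group, and the labels do not say whether a set shares a day or litter. Within these sets, Maoa in control mice was higher after cocaine than after saline by 0.22, 0.17 and 0.20. After saline it was higher in mutant than in control mice by 0.33, 0.09 and 0.14. The direction was thus shared by 3 of 3 sets for both, and both use the same control saline arrays. With sets of consecutive numbers as a block in both series, these differences were 0.15 ± 0.09 and 0.19 ± 0.10 (SE, limma adjusted p = 1.000 for both). In every other within-set comparison of Maoa, Ddc and Th the sets differed in direction. For Ddc, mutant minus control after saline was 0.59, -0.05 and 0.39. Cocaine minus saline for Maoa in mutant mice was -0.04, -0.23 and 0.03.

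Across the 7 comparisons, 0 of the 3 tested members passed an adjusted p under 0.05 in limma, and 0 passed by an ordinary linear model. At an unadjusted p under 0.05 there was 1 member, Ddc, after saline and averaged over treatments, and 0 in the other 5 comparisons. Of all probe sets, 2.76% and 7.13% had such a p in these 2 comparisons. Without mutant cocaine replicate 5, Maoa also had such a p for cocaine in control mice, for genotype after saline and for the difference of the cocaine responses. These were 0.0447, 0.0399 and 0.0458 in limma, with adjusted p of 0.541, 0.890 and 0.998. The share of all probe sets with such a p in that setting is not given here. With all arrays, the share of all probe sets that passed was 0.11% for cocaine in control mice, 0.0473% for cocaine in mutant mice and 0.221% for the average over both genotypes. It was 0% for the 3 genotype comparisons and for the difference of the cocaine responses. With 3 members tested, a count of 0 lies at this background. The comparisons with a common group of arrays share those arrays and are not independent.

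**Figure D3:**
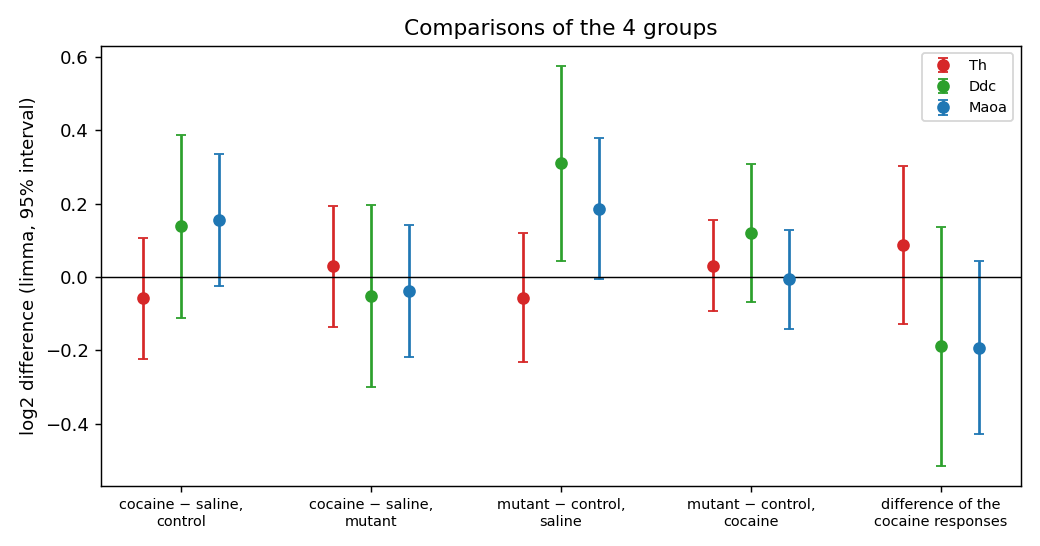
Log2 differences from limma with 95% intervals for Th, Ddc and Maoa in the 2 cocaine comparisons, the 2 genotype comparisons and the difference of the cocaine responses (mutant minus control). Only the interval of Ddc for mutant against control after saline, 0.04 to 0.58, does not hold 0, and its adjusted p was 1.000.

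The other genes of dopamine and monoamine metabolism were taken from a list of 28, of which 22 had a probe set and 11 were above the floor. By role, above the floor were 3 of 5 measured genes of the tetrahydrobiopterin cofactor that Th needs (Qdpr, Pts and Spr), 7 of 8 of breakdown, 1 of 4 of other amine synthesis (Hdc, which makes histamine) and 0 of 5 other amine transporters. The breakdown gene at the floor was Renbp, which encodes renin binding protein and is not an enzyme of monoamine breakdown. It stays in the counts of listed and measured genes, but it is not among the 11 above the floor. Gch1, the first enzyme of cofactor synthesis, lay at 2.46 in its highest array. Dbh, which turns dopamine into noradrenaline, had a mean of 2.17. The noradrenaline and serotonin transporters Slc6a2 and Slc6a4 had means of 2.17 and 1.99. Means of the 11 genes at the floor ran from 1.75 to 3.81, and 1 single array, for Pnmt, was above log2 4.

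None of the 11 passed in any of the 7 comparisons by limma or by an ordinary linear model. At an unadjusted p under 0.05 there were 2, Aldh1a1 for cocaine in mutant mice and Akr1a1 for the averaged genotype comparison. Of all probe sets, 6.95% and 7.13% had such a p in these comparisons. The median difference of the 11 was 0.04 for cocaine averaged over genotypes and 0.01 for genotype averaged over treatments, beside 0.00 and 0.01 over all tested probe sets. The 6 of highest mean level were enzymes that handle aldehydes or regenerate the cofactor. Qdpr, which regenerates tetrahydrobiopterin, stood at 0.04 ± 0.07 for cocaine and 0.01 ± 0.06 for genotype (SE). The mitochondrial aldehyde dehydrogenase Aldh2, which oxidises the aldehyde that monoamine oxidase forms, stood at 0.08 ± 0.07 and 0.06 ± 0.06.

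Akr1a1, an aldehyde reductase, stood at 0.01 ± 0.03 for cocaine and 0.06 ± 0.03 for genotype (unadjusted p = 0.0477, limma adjusted p = 0.679). Adh5 stood at 0.04 ± 0.06 and 0.04 ± 0.05, and Aldh7a1 at -0.22 ± 0.18 and 0.21 ± 0.15. Aldh1a1, an aldehyde dehydrogenase found in part of the midbrain dopamine neurons, stood at 0.25 ± 0.15 for averaged cocaine. It was at 0.46 ± 0.20 for cocaine in mutant mice alone (unadjusted p = 0.0371, limma adjusted p = 0.660) and at 0.04 ± 0.20 in control mice. These values moved with 1 array. Control cocaine replicate 3 lay at 8.23, against 8.94 to 9.35 in the other control cocaine arrays, and without it the control response was 0.25 ± 0.16. Averaged cocaine was then 0.39 ± 0.12 (unadjusted p = 0.00611, limma adjusted p = 0.774). Cocaine in mutant mice was then 0.53 ± 0.15 (unadjusted p = 0.00384, limma adjusted p = 0.688). The difference between the responses was 0.41 ± 0.26 with that array and 0.28 ± 0.20 without it. None of these passed.

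**Figure D4:**
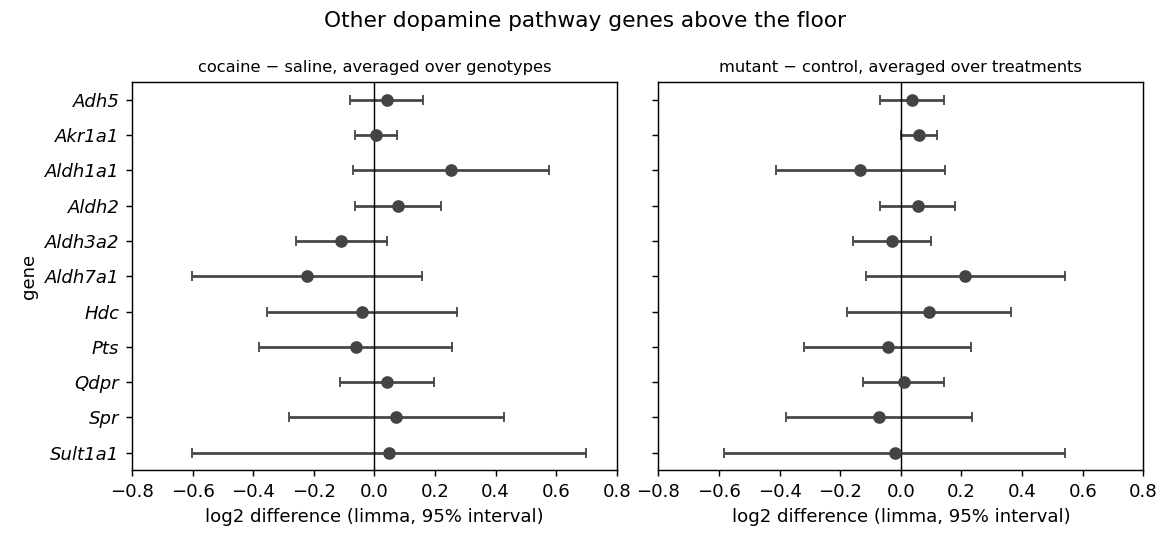
Log2 differences from limma with 95% intervals for the 11 other pathway genes above the floor, for cocaine minus saline averaged over genotypes (left) and mutant minus control averaged over treatments (right). Intervals of Akr1a1 are the narrowest and those of Sult1a1 the widest, and none of the genes passed the threshold.

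Markers of midbrain dopamine neurons other than the members were mostly at the floor. Of 13 measured genes, 10 did not reach log2 4 in at least 3 arrays. They include the transcription factors that specify these neurons, with means of 1.65 for Pitx3, 1.99 for Lmx1a, 2.12 for Lmx1b, 2.21 for Foxa1, 1.91 for Foxa2, 2.30 for En1 and 2.50 for En2. Ret lay at 2.24, Chrna6 at 2.17 and Gucy2c at 2.30. The exceptions were Nr4a2 (mean 3.49, highest array 4.97), which neurons also induce by activity, Sncg (mean 3.89, highest array 4.26) and Aldh1a1 (mean 8.88). Summed linear levels of this list, mostly from Aldh1a1, ran from 511 to 538 in control saline, 354 to 501 in mutant saline, 366 to 717 in control cocaine and 511 to 770 in mutant cocaine arrays.

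Of the other cell types, the list for serotonin and noradrenaline neurons was at the floor in 9 of 9 measured genes. Among them were Gata2 (3.86) and Phox2a (2.44). This list also held Hcrt, Oxt and Avp, peptide genes that mark other neurons. Above the floor were 10 of 10 astrocyte markers, among them Gja1 (12.3) and Slc1a3 (11.3), and 6 of 6 oligodendrocyte markers, among them Mbp (14.6) and Cnp (13.7). So were 5 of 9 endothelial markers, among them Slco1a4 (8.44) and Cldn5 (7.98), 2 of 6 of choroid plexus and ependyma, among them Foxj1 (4.44) and Ttr (3.64), and 2 of 4 of cortical neurons, among them Nrgn (12.1) and Tbr1 (3.64). Summed astrocyte levels ran from 11676 to 13360 in control saline and from 11348 to 12304 in mutant saline arrays, and from 11316 to 13944 and from 11832 to 12852 after cocaine. The ranges overlapped between all groups.

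The genes whose values ran most like Maoa by Spearman rank correlation over the 18 arrays were H2-Ke6 (rho = 0.85), Hexdc (0.80), Tor1b (0.76), Mindy1 (0.75) and Pcnp (0.74). For Ddc they were Alg13 (0.75), Coq3 (0.74), Arhgap6 (0.74), Cgref1 (0.72) and Adam15 (0.72). For Ddc and Maoa themselves rho was 0.26, and for Ddc and Th it was -0.01. For Th the leading genes were Trim27 (0.77), Spout1 (0.71), Rarg (0.66), Cacnb1 (0.66) and Etl4 (0.66). Pearson's r with them was, in that order, 0.20, 0.75, 0.23, 0.12 and 0.45. As 16 of 18 Th values lay within 0.05 of their median, its ranks mostly order very small differences. These are descriptions over arrays that share group, numbering series and normalisation, and the leading genes are the extremes of all tested genes.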

How the data were processed

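Total RNA from striatum was labelled with biotin and hybridised to Affymetrix arrays, per the labels' protocols. The deposited table holds log2 values for 22690 probe sets on 18 arrays, made by the authors with GCRMA in R 2.4.1 per the submitters' processing notes. The sources used here do not give its settings. GCRMA corrects background from probe sequence and compresses dim probe sets. The number of arrays limits the precision.

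Probe sets above log2 4 in at least 3 arrays were kept, without 64 control probe sets, which left 12674. Limma 3.58.1 in R 4.3.3 fitted the 4 groups and the numbering series, with a variance trend, two-sided moderated tests and Benjamini-Hochberg adjustment over all tested probe sets (threshold 0.05), in 7 comparisons. Genes came from GEO's platform annotation, with symbols updated through RefSeq, and for the list genes the probe set of highest mean stood for the gene. Named genes are all members, Camk4, the 6 brightest pathway genes and any past the threshold, every midbrain marker measured, the 2 brightest of each other marker list and the 5 genes most like each tested member. The members and lists were chosen with earlier results of these data known. The fit was tested on simulated data. Replicate numbers were not used to pair the arrays in the main fit. Deviations of same-numbered arrays of different groups correlated from -0.23 to 0.31 (mean 0.04). For other-numbered arrays of different groups in the same series the range was -0.39 to 0.30 (mean -0.02). The deviations were taken from means of 3 arrays, so these values cannot show that pairing is absent. Sets of consecutive animal numbers, which differ from the replicate numbers, were tried as another block.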

Additional observations from a re-analysis of the deposited data

Results flagged for a closer look

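In the cocaine groups, 20 sets of 6 arrays were examined for an array far from the rest, and 2 had one, where chance gives about 1 in 20. Th in control cocaine replicate 5 was at 5.32, while the other 5 arrays lay between 5.45 and 5.47. Aldh1a1 in control cocaine replicate 3 was at 8.23, while the other arrays lay between 8.94 and 9.35.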

How the results depend on the processing

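Under 32 other settings, none of the tested members or other pathway genes passed in any comparison a setting could give, and 3 member probe sets stayed above the floor under every level tried. With a replicate block, averaged mutant minus control was 0.22 ± 0.08 for Ddc (SE, limma adjusted p = 0.585), and the block changed no call of a member. With sets of consecutive animal numbers as the block it was 0.22 ± 0.08 (adjusted p = 0.559), and no call changed. Over all settings that difference ran from 0.16 to 0.29, with adjusted p from 0.332 to 1.000. Since no member difference passed, every sign that turned was necessarily that of a difference that had not passed. Within the Roman-numbered arrays Maoa after cocaine, mutant minus control, was 0.076. With each array minus its median it was 0.034, and Th was 0.0072 for averaged cocaine and 0.026 for averaged genotype. Ddc for averaged cocaine was -0.022 with an actin term and without mutant cocaine replicate 5, a setting chosen after seeing the data. Leaving out 1 array at a time gave -0.0086 to 0.114 for Ddc and -0.028 to 0.0096 for Th for averaged cocaine. For cocaine in control mice it gave 0.034 to 0.278 for Ddc, and for the difference of its responses -0.330 to -0.086. It gave -0.118 to 0.052 for Ddc and -0.074 to 0.017 for Maoa for cocaine in mutant mice. It gave -0.039 to 0.030 for Maoa after cocaine and -0.026 to 0.012 for Th averaged, both mutant minus control. The cause was not tested. Over all probe sets, averaged cocaine called 28, but 430 in the Arabic-numbered arrays alone and 362 without mutant cocaine replicate 5.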
